A study of Mus musculus and Rattus norvegicus with 37 samples.

Results

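The matrix metalloproteases and their tissue inhibitors were followed in liver as 10 genes (Mmp2, Mmp9, Mmp12, Mmp13, Mmp14, Mmp15, Mmp19, Timp1, Timp2 and Timp3), chosen by name and all present among the 47929 named genes of the mouse tables and the 28026 of the rat tables. RNA-seq of liver from 37 animals was deposited, 21 mice and 16 rats. The mice were C57BL/6J females that received a subcutaneous injection of saline or of LNA29, a mix of locked nucleic acids against miR-29a and miR-29b/c at 20 mg/kg each, and non-fasted liver was collected 7 days later. The WT/Floxed group held 8 LNA29-treated livers (4 WT, 4 floxed) and 5 saline-treated livers (3 WT, 2 floxed), after the authors had set aside 1 floxed mouse. The group labelled L-Sirt1 KO, a liver-specific deletion of Sirt1, held 4 LNA29-treated and 4 saline-treated livers. WT mice were 9 to 11 weeks old, whereas floxed and L-Sirt1 KO mice were 15 to 20 weeks old. The control was saline and not a control LNA, so the response to LNA29 and to any injected LNA cannot be told apart. The rats were males: 4 obese fa/fa Zucker fatty rats (ZFRs) and 4 Zucker lean rats (ZLRs) of 5.5 months, and 3-month-old ZFRs given BT2 (n = 4), an inhibitor of the kinase of the branched-chain ketoacid dehydrogenase, at 20 mg/kg daily for 1 week, or its vehicle (n = 4).

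Values are normalized counts, that is gene counts estimated by the authors' pipeline and divided by a factor for library depth, with each of the 4 tables scaled on its own. Mouse libraries held an estimated 42.6 M to 78.0 M reads (M, 1e6). Rat libraries ranged from 0.188 M to 58.5 M, and in the shallowest of them 1 read was worth 10.5 normalized counts. Those depths bear on the rat values below, where some genes rest on 1 or 2 reads. The study states that the LNA experiment was run at 2 sites, the labels do not tie livers to a site, and a number that opens the library names takes 3 values among the mice and 2 among the rats. In whole liver fewer cells of a type and less RNA per cell cannot be told apart. Sirt1 averaged 590.5 ± 81.2 normalized counts (SD, n = 5) in saline-treated WT/Floxed livers and 586.0 ± 30.6 (SD, n = 4) in saline-treated livers labelled L-Sirt1 KO. A count over the whole gene does not show the loss of a part of it, so these values do not check the label, and the mice are named here by it.

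Matrix metalloproteases are zinc-dependent endopeptidases made as inactive proenzymes, which together can cut most proteins of the extracellular matrix. TIMPs bind the active enzymes and block them, and TIMP2 also takes part in the activation of pro-MMP2 by the membrane-bound MMP14. In liver the gelatinase MMP2 is known mainly from stellate cells and other fibroblast-like cells, whereas MMP9 and MMP12 are known from leukocytes and macrophages. The miR-29 family is known for binding the mRNAs of collagens and other matrix proteins, and its members share the seed, bases 2 to 8 of the mature strand. The mature sequences targeted by LNA29 (RefSeq, GRCm38.p6) are shown because the seed decides which sites were looked for, and it is in capitals here:
mmu-miR-29a-3p: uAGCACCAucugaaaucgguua
mmu-miR-29b-3p: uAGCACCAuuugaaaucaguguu
mmu-miR-29c-3p: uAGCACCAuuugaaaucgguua

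A match to this seed, TGGTGCT, was found in the annotated 3′ UTR of 2 of the 10 genes, Mmp2 and Mmp13. Such a match was held by 16.3% of the 13477 genes that were tested in the WT/Floxed livers and had an annotated 3′ UTR. The longer match of 8 bases, TGGTGCTA, was in none of the 10 genes and in 3.51% of those genes. The match in Mmp2 lies at chr8:92852923-92852929 on the + strand (GRCm38), 258 bases into a 3′ UTR of 755 bases, and that in Mmp13 at chr9:7283190-7283196 on the + strand, 1072 bases into 1213. They are shown with their flanks, the match in capitals, since Mmp2 is the member with the clearest response to LNA29:
Mmp2: tctgggctgcccTGGTGCTccactcttctg
Mmp13: gcgagtaacactTGGTGCTtactgatgtgt
A match is a description of the letters and does not show binding. The other 8 genes, Mmp12 and Mmp19 among them, held no TGGTGCT in an annotated 3′ UTR.

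Per kilobase of the longest protein-coding transcript, Mmp19 was the most abundant member in saline-treated WT/Floxed liver, with 1451 ± 267 normalized counts per kb (SD, n = 5). Mmp19 encodes a secreted metalloprotease. Mmp14, the membrane-anchored activator of pro-MMP2, followed with 812 ± 93.3 per kb, and the membrane-type Mmp15 with 346 ± 49.1. The inhibitors Timp2 (266 ± 8.76 per kb) and Timp3 (263 ± 50.6) lay next, and the libraries of these 2 genes and of Mmp15 overlapped from each gene to the next. Mmp2 stood at 57.7 ± 6.36 per kb, below Timp3 and above Mmp9 in every library. Mmp9 (16.1 ± 6.65), Timp1 (7.15 ± 4.32), Mmp12 (3.94 ± 1.52) and the collagenase Mmp13 (3.73 ± 1.13) were low and overlapped with their neighbours. In saline-treated L-Sirt1 KO liver the first 7 places were taken by the same genes in the same order, from 1336 ± 117 per kb for Mmp19 to 13.8 ± 3.62 for Mmp9 (SD, n = 4). There the ranges of Mmp19 and Mmp14 overlapped.

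**Figure D1:**
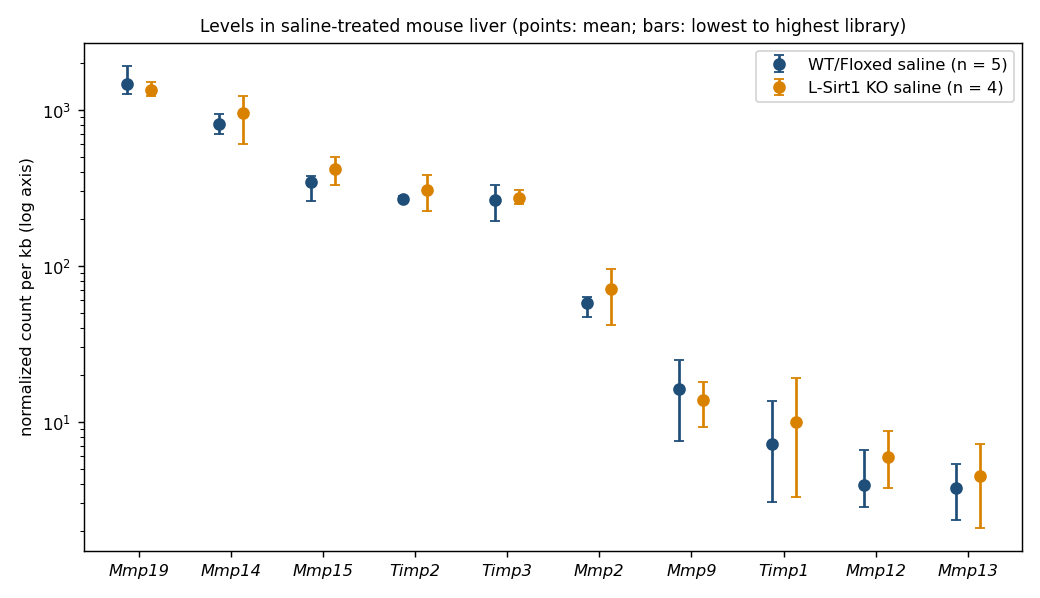
Normalized counts per kb of transcript (log axis) of the 10 genes in saline-treated mouse liver, with points for the mean and bars from the lowest to the highest library, WT/Floxed (n = 5) and L-Sirt1 KO (n = 4). Mmp19 and Mmp14 stand highest, and Mmp12 and Mmp13 lowest in WT/Floxed liver.

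LNA29 was compared with saline in WT/Floxed mice to ask which of these genes respond when miR-29 is inhibited. Mmp2 was higher in LNA29-treated livers, the most abundant member, Mmp19, was lower, and Mmp12 was higher at a low level, while Mmp14, Mmp15, Timp2 and Timp3 differed by at most 0.11 in log2 fold change. Timp1 (mean below 10) was not tested. Of the 9 tested genes, 2 met the limits for a call (limma p under 0.05, adjusted p under 0.2, mean above 50 and fold change above 1.2), Mmp2 upwards and Mmp19 downwards. Of all 15811 genes tested, 4.35% did (2.42% upwards and 1.93% downwards). An unadjusted p under 0.05 was found for 3 of the 9 and for 13.3% of all. The median log2 fold change of the 9 genes was 0.11, and that of all tested genes was 0.00.

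Mmp2 (chr8:92827291-92853420, + strand, GRCm38) encodes gelatinase A, which cuts denatured collagen and type IV collagen. The 5 saline-treated livers held 180.0, 180.6, 194.8, 188.1 and 144.3 normalized counts of Mmp2. The 8 LNA29-treated livers ranged from 206.9 to 544.0, with a median of 402.8. The groups did not overlap, which was so for 1.51% of all tested genes (0.942% upwards), and the LNA29-treated livers spread far more widely than the saline-treated ones. The log2 fold change was 1.04 (SE 0.22, 95% confidence interval 0.58 to 1.5), with a limma adjusted p of 0.0295 and a two-sided exact permutation p of 0.00155. Mmp2 was higher after LNA29 in both backgrounds: WT mice went from a mean of 187.7 (n = 3) to 434.0 (n = 4) and floxed mice from 162.4 (n = 2) to 333.9 (n = 4), without overlap in either. Fits restricted to WT or to floxed mice gave 1.15 (adjusted p = 0.228) and 0.98 (adjusted p = 0.204) on the log2 scale, neither past the adjusted limit with so few mice.

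The other gelatinase, Mmp9, is stored by neutrophils, and it was 51.2 ± 21.1 normalized counts in saline-treated (SD, n = 5) and 46.2 ± 17.7 in LNA29-treated livers (SD, n = 8). Its change of −0.13 on the log2 scale had a 95% confidence interval of −0.81 to 0.55, which holds changes of either sign. Mmp12 encodes the macrophage elastase, whose substrates include elastin. Its values were 12.5, 23.7, 13.9, 10.8 and 10.2 normalized counts in the saline-treated livers and 19.0 to 46.1 (median 31.2) in the LNA29-treated livers. The highest saline-treated liver overlapped with the lowest LNA29-treated one. The change of Mmp12 was 1.13 on the log2 scale (SE 0.24, adjusted p = 0.0349, exact permutation p = 0.00155), but its mean lay below 50 and it was therefore not called. In the reference annotation 157 of its exonic bases are shared with Mmp1b on the opposite strand, and whether strand was used in counting is not stated. Mmp1b itself was listed at a mean of 0 in every mouse group. The collagenase Mmp13 was 9.98 ± 3.01 (SD, n = 5) against 12 ± 4.32 (SD, n = 8), with an interval of the log2 fold change from −0.67 to 0.96.

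Among the membrane-type enzymes, Mmp14 was 2628 ± 302 normalized counts with saline and 2807 ± 301 with LNA29 (log2 fold change 0.09, 95% confidence interval −0.11 to 0.29). Mmp15 was 1776 ± 252 and 1788 ± 266 (0.01, −0.24 to 0.26). These intervals leave out changes of the size seen in Mmp2. Mmp19 (chr10:128790910-128800824, + strand, GRCm38) was lower after LNA29. Its saline-treated livers held 4295, 4735, 4281, 4884 and 6492 normalized counts, and the LNA29-treated livers 2894 to 4588 with a median of 3680. All 8 LNA29-treated livers lay below the saline median, and 1 of them lay within the saline range. The log2 fold change was −0.42 (SE 0.12, 95% confidence interval −0.68 to −0.16, adjusted p = 0.120, exact permutation p = 0.00544). Within WT mice it was −0.34 (adjusted p = 0.498) and within floxed mice −0.57 (adjusted p = 0.212), without overlap between treatments in either background. The call was lost in 5 of the 13 fits that left out a library, LNA29 replicate 6, 7 or 8 or saline replicate 4 or 5, with adjusted p from 0.201 to 0.229. Mmp19 overlaps 2 genes on the opposite strand in the annotation, Tmem198b with 789 exonic bases and Gm47093 with 212, which the counts may not separate.

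None of the inhibitors was called. Timp2, the inhibitor that also bridges MMP14 and pro-MMP2, was 988.2 ± 32.5 with saline and 1071 ± 111 with LNA29 (log2 fold change 0.11, 95% confidence interval −0.07 to 0.28). Timp3, which is held in the matrix and also blocks ADAM17, was 1244 ± 239 and 1332 ± 195 (0.11, −0.18 to 0.39). In the annotation 1733 exonic bases of Timp3 are shared with Syn3 on the opposite strand, so the counts may not separate these genes. Timp1, the inducible inhibitor often raised in injured liver, was 2.71 to 12 normalized counts with saline and 4.12 to 12.2 with LNA29, at most 14 reads in a library.

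**Figure D2:**
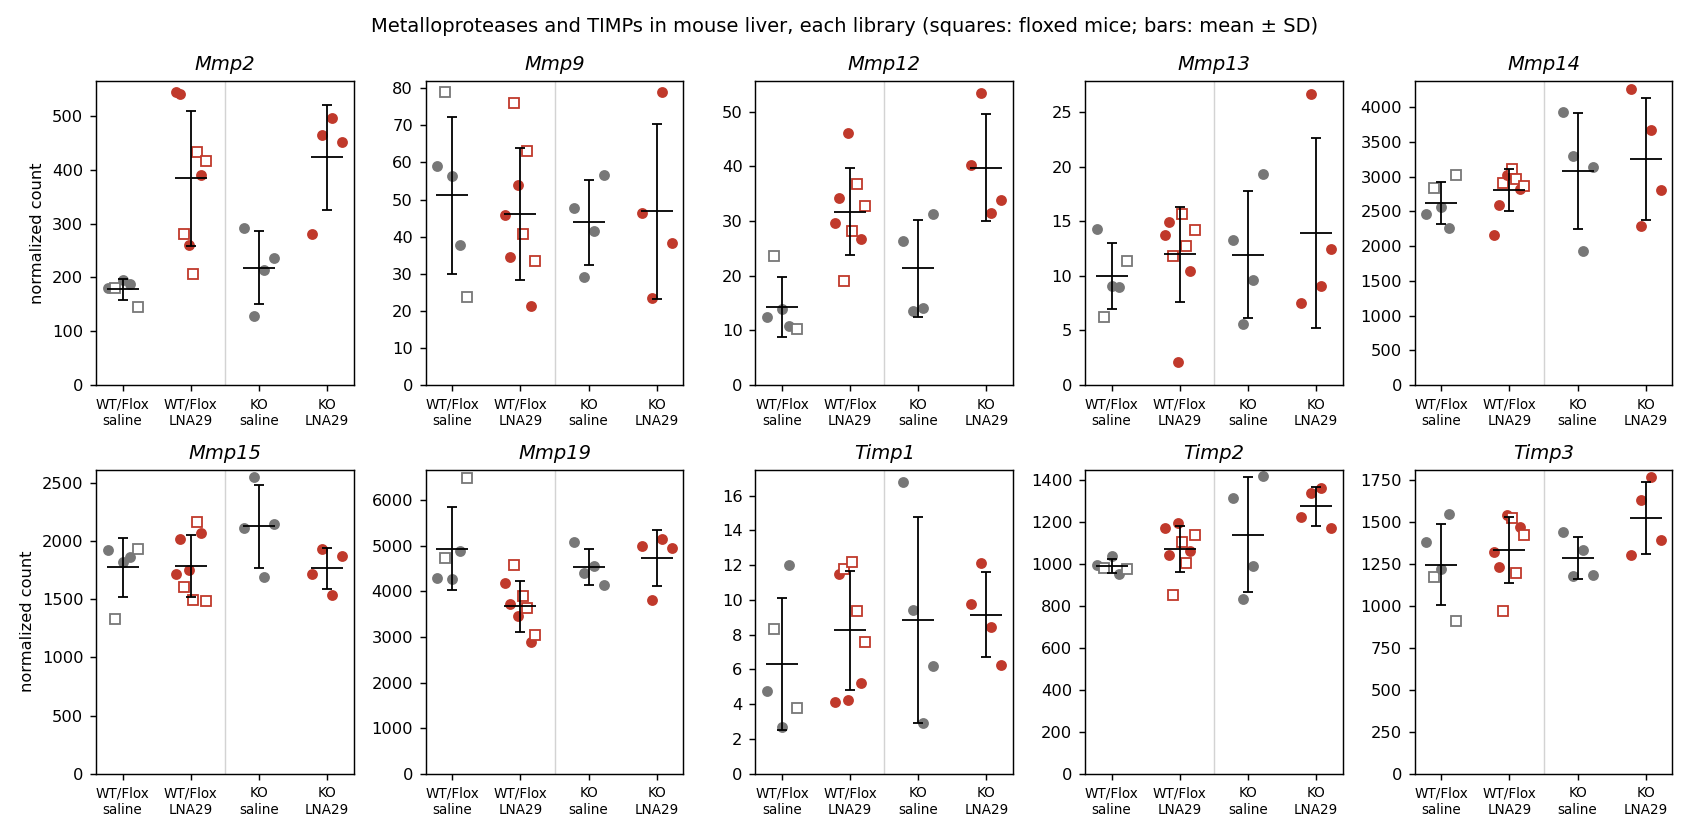
Normalized counts of the 10 genes in each of the 21 mouse livers by group, with floxed mice as open squares and bars for the mean ± SD. Mmp2 separates LNA29 from saline in WT/Floxed mice (206.9 to 544.0 against 144.3 to 194.8), Mmp19 is lower after LNA29 in WT/Floxed mice, and Timp1 stays below 17 in every liver.

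The comparison in L-Sirt1 KO mice asks whether a response to LNA29 is present without hepatic Sirt1. Mmp2 was again higher, Mmp12 was higher in every LNA29-treated liver by a narrow margin without passing the test, and Mmp19 differed by 0.05 in log2 fold change. Of the 9 tested genes 1 was called, Mmp2, against 1.87% of the 15885 genes tested (1.19% upwards and 0.680% downwards), and 2 had an unadjusted p under 0.05, against 11.2%. The median log2 fold change of the 9 genes was 0.16. Mmp2 was 292.3, 128.9, 214.2 and 235.1 normalized counts in the saline-treated livers and 280.2, 465.1, 495.6 and 451.3 in the LNA29-treated livers. The lowest LNA29-treated liver fell below the highest saline-treated liver, so the groups overlapped. On the log2 scale the change was 0.98 (SE 0.26, 95% confidence interval 0.39 to 1.57). Its adjusted p of 0.1999 lay at the limit of 0.2, the exact permutation p was 0.0571, and the call was lost in 6 of the 8 fits without a library (LNA29 replicate 2, 3 or 4, saline replicate 2, 3 or 4), with adjusted p from 0.279 to 0.433. With the number that opens the library names as a covariate the log2 fold change was 1.0 and the call was also lost (adjusted p = 0.324).

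Mmp12 was 26.3, 13.6, 14.2 and 31.3 normalized counts in saline-treated and 40.3, 53.4, 31.5 and 33.8 in LNA29-treated L-Sirt1 KO livers. The groups did not overlap, as for 6.95% of all tested genes (3.65% upwards), and the exact permutation p of 0.0286 is the smallest that 4 against 4 can give. The nearest values, 31.3 with saline and 31.5 with LNA29, stood for an estimated 35.7 and 34.9 reads, so the separation rested on the depth scaling. The log2 fold change of Mmp12 was 0.93 (SE 0.33, adjusted p = 0.325). Mmp19 was 5077, 4398, 4570 and 4131 in saline-treated and 4999, 3823, 5161 and 4960 in LNA29-treated livers. These groups overlapped, and the 95% confidence interval of the log2 fold change ran from −0.20 to 0.31. Mmp15 (log2 fold change −0.26, adjusted p = 0.516), Timp3 (0.24, adjusted p = 0.501) and Timp2 (0.19, adjusted p = 0.709) did not pass the test. Mmp9, Mmp13 and Mmp14 had log2 fold changes of 0.00 to 0.16, with intervals that reached at least 0.45 on either side of 0.

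The difference between the responses of the genotypes was tested directly as an interaction, L-Sirt1 KO minus WT/Floxed. The WT mice of the WT/Floxed group were 9 to 11 weeks old, and the floxed and L-Sirt1 KO mice 15 to 20 weeks. Genotype, age and background therefore cannot be fully told apart in this contrast. By limma 0 of the 9 genes passed an adjusted p of 0.2, as did 7 of 15601 genes (0.0449%), and 1 of the 9 had an unadjusted p under 0.05, against 9.14% of all. The count of 7 was unstable, ranging from 0 to 233 when a library was left out. That gene was Mmp19, whose response was 0.48 higher in L-Sirt1 KO mice on the log2 scale (95% confidence interval 0.10 to 0.86, adjusted p = 0.411). For Mmp2 the responses of 1.04 and 0.98 differed by −0.06, with an interval of −0.81 to 0.69. Differences in the Mmp2 response within that interval were not excluded with these mice. The adjusted p of the other 7 genes ranged from 0.710 to 0.997.

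**Figure D3:**
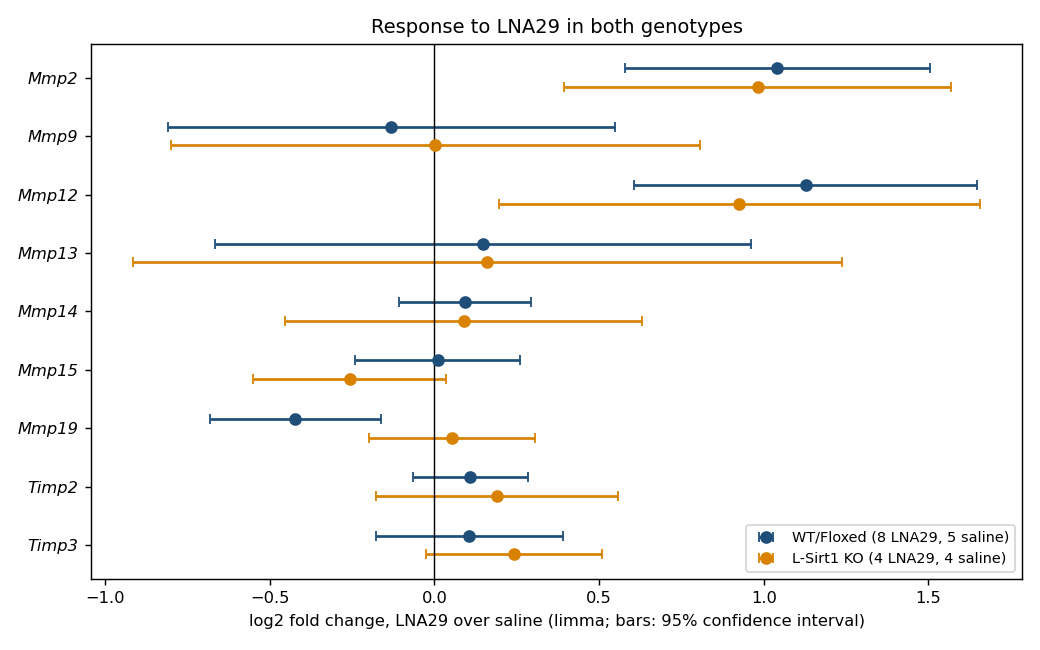
Log2 fold change of LNA29 over saline with its 95% confidence interval (limma) for the 9 tested genes, WT/Floxed in blue and L-Sirt1 KO in orange. The intervals of Mmp2 and Mmp12 lie above 0 in both genotypes, that of Mmp19 lies below 0 in WT/Floxed mice, and the other intervals cross 0.

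Markers of the cell types known to make these enzymes gave the following values beside those results. The summed normalized counts of 8 stellate cell markers (Reln or Rgs5 the most abundant in every library) averaged 9374 in saline-treated and 9430 in LNA29-treated WT/Floxed livers, and 10067 and 10733 in L-Sirt1 KO livers, with 0 of 8 markers called in either genotype (limma). Of these 8 markers 1, Pdgfrb, had an unadjusted p under 0.05 in WT/Floxed mice and none did in L-Sirt1 KO mice, where Hgf had the largest change (0.33, adjusted p = 0.530). Pdgfrb was 0.26 higher with LNA29 in WT/Floxed mice (limma adjusted p = 0.187), and its fold of 1.199 lay just under the limit of 1.2 for a call. Beside the higher Mmp12, the 8 macrophage markers summed to 13479 to 23653 in saline-treated and 7343 to 40601 in LNA29-treated WT/Floxed livers, and to 16244 to 19527 and 13057 to 16402 in L-Sirt1 KO livers, with none of these markers at 0 in any of these livers and Clec4f or Cd5l the most abundant. LNA29 replicate 4 had both the highest sum and the highest Mmp12, and LNA29 replicate 3 had both the lowest sum (7343) and the lowest Mmp12 of its group (19.0). LNA29 replicates 1, 2 and 6 also had sums below every saline-treated liver (7410, 9457 and 11220), and their Mmp12 was 29.7, 34.2 and 36.8. In WT/Floxed mice 0 of the 8 markers were called or had an unadjusted p under 0.05 (limma), 7 had a negative log2 fold change, and the median was −0.43. Cd5l had the largest change there (−0.60, limma adjusted p = 0.560). In L-Sirt1 KO mice 2 were called lower, Vsig4 (log2 fold change −0.54) and Clec4f (−0.29), and 5 had an unadjusted p under 0.05. The 6 neutrophil markers summed to at most 341 in any mouse liver. Of 5 cholangiocyte and 4 mesothelial markers, 0 were called and 0 had an unadjusted p under 0.05 in either genotype (limma), as with the 4 tested neutrophil markers. Among those with a mean above 50 their largest changes, WT/Floxed before L-Sirt1 KO, were those of Krt7 (0.54 and −0.44) and Msln (−0.25 and −0.36), and among neutrophil markers of Csf3r in WT/Floxed (−0.27) and S100a9 in L-Sirt1 KO mice (0.42). Of 6 hepatocyte markers 1 was called in WT/Floxed mice, Apoa1, which rose by 0.51 (adjusted p = 0.0312). In L-Sirt1 KO mice Apoa1 had a log2 fold change of −0.07 (adjusted p = 0.853), and 0 of the 6 were called, 2 with an unadjusted p under 0.05 (limma). The interaction of Apoa1 was −0.58 (limma adjusted p = 0.261). Cps1 had the largest change of the 6 in L-Sirt1 KO mice (0.60, limma adjusted p = 0.323), and in WT/Floxed mice its change was −0.17. Its interaction was 0.76 (limma adjusted p = 0.355). Of 6 endothelial markers 1 was called in each genotype, Lyve1, which fell by 0.51 in WT/Floxed and by 1.17 in L-Sirt1 KO mice on the log2 scale. The interaction of Lyve1 was −0.66 (limma adjusted p = 0.501). The 6 together averaged 10294 with saline and 10043 with LNA29 in WT/Floxed livers, and 10886 and 10494 in L-Sirt1 KO livers. The part of these markers in the results was not tested.

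The genes most like Mmp2 across the 13 WT/Floxed libraries, among 12875 with a mean above 50, were Mxi1 (Pearson r = 0.92), Loxl1 (0.91) and Col6a3 (0.90). Loxl1 encodes a lysyl oxidase that crosslinks elastin, and Col6a3 a chain of type VI collagen. Across the 8 L-Sirt1 KO libraries, which did not enter that choice, r with Mmp2 was 0.86 for Loxl1, 0.83 for Col6a3 and −0.37 for Mxi1. For Mmp19 the nearest were Dnajb14 (0.97), Ftl1 (0.95) and Map2k3 (0.95), with 0.54, 0.27 and 0.46 in L-Sirt1 KO libraries. These are descriptions, since both treatments and a common scaling stand behind every point.

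The proteins that these enzymes cut, and the other genes of the system, were taken as lists chosen with earlier results of these data known. Their counts and medians are therefore descriptions and no independent support. Of 10 matrix substrates, 8 were called higher in WT/Floxed and 9 in L-Sirt1 KO mice, with median log2 fold changes of 0.73 and 0.76. Elastin (Eln), the classic substrate of MMP12, rose by 1.85 and 1.73, and the type III collagen chain Col3a1 by 1.19 and 1.74. Col1a1, a chain of type I collagen, rose by 0.87 in WT/Floxed mice and by 1.71 in L-Sirt1 KO mice, with an interaction of 0.84 (limma adjusted p = 0.499). The collagen genes include known miR-29 targets. A TGGTGCT match was held by 7 of the 10 substrates, 9 of the 18 ADAM and ADAMTS proteases below and 2 of the 10 metalloprotease and TIMP genes. Among all tested genes with an annotated 3′ UTR the share was 16.3%. The part of these matches in the responses was not tested. Col4a2, a chain of the type IV collagen that MMP2 cuts, rose by 0.96 in WT/Floxed and by 0.94 in L-Sirt1 KO mice. Among 18 other MMP and TIMP genes, 5 in WT/Floxed and 6 in L-Sirt1 KO mice reached the minimum and 0 were called or had an unadjusted p under 0.05 (limma). The largest change among those with a mean above 50 was that of Mmp11, 0.49 in WT/Floxed (adjusted p = 0.560) and −0.21 in L-Sirt1 KO mice (adjusted p = 0.917).

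Of 18 ADAM and ADAMTS proteases, relatives that cut proteoglycans and procollagens or shed cell-surface proteins, 4 were called higher in WT/Floxed mice and 0 in L-Sirt1 KO mice, where 6 had an unadjusted p under 0.05 (limma). The procollagen peptidase Adamts14 rose by 0.92 (adjusted p = 0.119), Adamts7 by 0.78 (adjusted p = 0.0597) and Adamts9 by 0.52 (adjusted p = 0.119) in WT/Floxed mice. In L-Sirt1 KO mice the log2 fold changes were 0.10 for Adamts14, 0.73 for Adamts7 (adjusted p = 0.263) and 0.70 for Adamts9. The interaction was −0.81 for Adamts14 (adjusted p = 0.549), and −0.05 (adjusted p = 0.980) and 0.18 (adjusted p = 0.878) for the other two, so none passed the limma test of a difference between genotypes. Of the 13 activators, clearance receptors and other inhibitors, 1 was called in WT/Floxed mice, Reck, which fell by 0.51 (adjusted p = 0.167). Reck encodes a membrane-anchored inhibitor of MMP2, MMP9 and MMP14. In L-Sirt1 KO mice its log2 fold change was 0.07, and its interaction was 0.58 (limma adjusted p = 0.590). Among L-Sirt1 KO livers 0 genes of this list were called and 2 had an unadjusted p under 0.05 (limma). Ctsk, the collagen-cutting cathepsin K, had the largest change there of those with a mean above 50 (log2 fold change 0.61, adjusted p = 0.280). In WT/Floxed mice Ctsk had a log2 fold change of 0.91 (adjusted p = 0.0238) without overlap between treatments, and it was not called because its mean of 49.4 lay below 50, so it is named there after its values were seen.

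**Figure D4:**
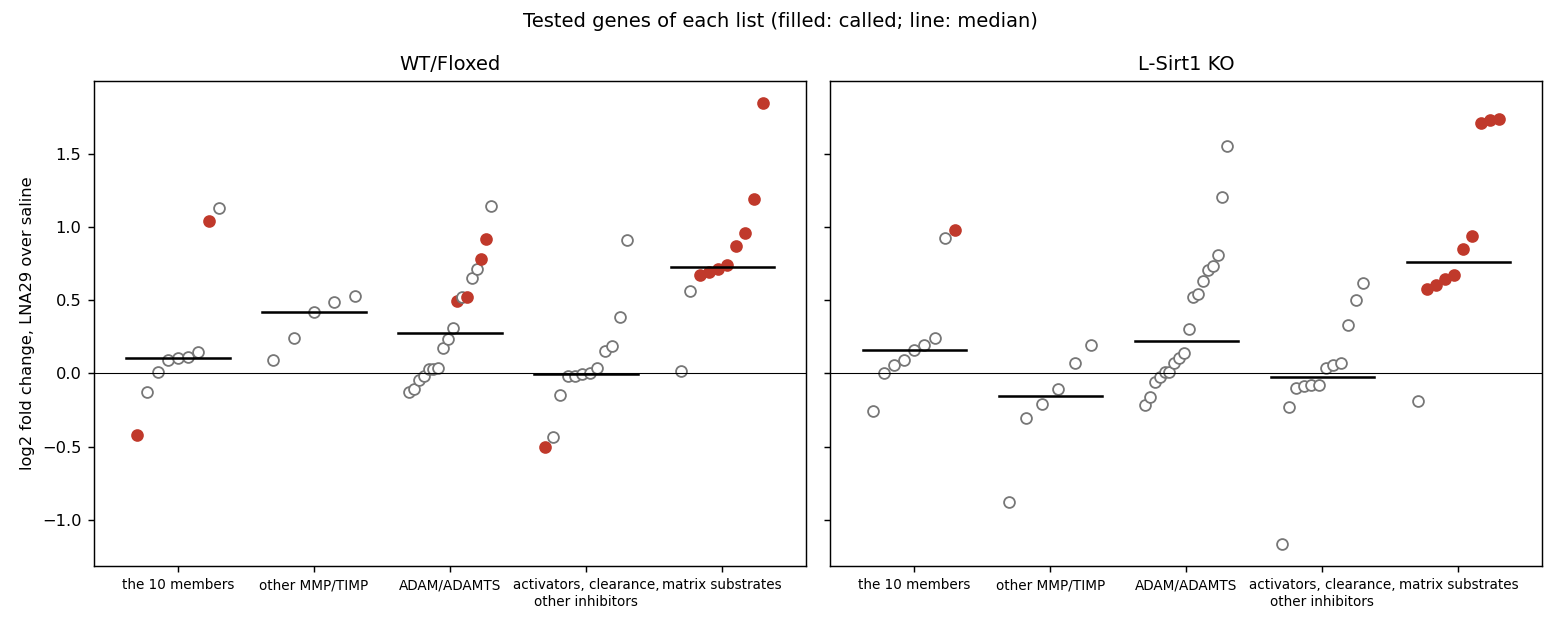
Log2 fold change of LNA29 over saline for every tested gene of 5 lists in both genotypes, filled where called, with a line at the median. The matrix substrates lie around 0.73 and 0.76, while the metalloprotease and TIMP genes lie around 0.11 and 0.16.

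Obese and lean rats were compared without a drug, as animals that differ in body fat from an inherited leptin receptor defect. Timp3 was higher in ZFR than in ZLR liver, and no other member passed the test. Of the 6 genes that reached a mean of 10 (Mmp2, Mmp14, Mmp15, Mmp19, Timp2 and Timp3), 1 was called at a limma adjusted p under 0.05, Timp3, against 4.25% of 8633 genes (1.80% upwards and 2.46% downwards), and 1 had an unadjusted p under 0.05, against 16.6%. The median log2 fold change was 0.37 over the 6 genes and 0.07 over all tested genes. Mmp2 is among the 6 through its ZFR values, so this count and median support no shift of the group.

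Timp3 was 5.82, 8.29, 21.1 and 20.9 normalized counts in ZLR and 34.9, 57.7, 43.9 and 43.6 in ZFR liver. The groups did not overlap, which was so for 14.5% of all tested genes (7.80% upwards). ZLR replicates 1 and 2 rested on 152 and 192 reads, whereas replicates 3 and 4 rested on 2 reads each. The log2 fold change was 1.78 (SE 0.42, 95% confidence interval 0.84 to 2.71, adjusted p = 0.0466, exact permutation p = 0.0286, the smallest that 4 against 4 can give). Without ZLR replicates 3 and 4, the libraries under 0.5 M estimated reads, it was 2.51 (adjusted p = 0.000835). That alternative was chosen after seeing the data. The remaining ZLR values, 5.82 and 8.29, lay below the minimum mean for testing. Timp3 thus entered that fit through the ZFR libraries, and its adjusted p there adds no support to the call. The call was lost when any of the 4 ZFR libraries, ZLR replicate 1 or ZLR replicate 2 was left out, with adjusted p from 0.0763 to 0.153 and log2 fold changes from 1.46 to 1.89.

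Mmp2 was 11.4, 9.03, 10.5 and 0 in ZLR and 13.6, 29.4, 14.6 and 14 in ZFR liver, where the value of 10.5 was 1 read. Mmp2 reached the minimum mean of 10 through the ZFR libraries, so its lack of overlap is no support for a difference. The log2 fold change was 1.55 (SE 0.85, adjusted p = 0.403), or 0.69 (adjusted p = 0.363) without the ZLR libraries under 0.5 M reads. Mmp12, below the minimum, was 0.230, 0.561, 0 and 0 in ZLR and 4.38, 23.5, 0 and 15.6 in ZFR liver. The 3 ZFR libraries with Mmp12 reads held 136, 20 and 10 of them, and ZLR replicates 1 and 2, at 56.4 and 46.1 M reads, held 6 and 13. Marco, a macrophage scavenger receptor, had a log2 fold change of 2.10 (adjusted p = 0.0664) beside it, and the 8 macrophage markers summed to 508 to 846 in ZFR and 459 to 664 in ZLR liver, with Clec4f the most abundant in every library and Timd4 at 0 in 3 ZFR and 2 ZLR libraries. Their part in the rat Mmp12 values was not tested.

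The membrane-type enzymes and Mmp19 did not pass the test. Mmp14 was 121.4 ± 67.9 in ZLR and 83.8 ± 8.27 in ZFR liver (SD, n = 4 each), and ZLR replicate 4 alone reached 219.3 on 21 reads. Mmp15 was 76.8 ± 19.0 and 99.3 ± 27.7 (log2 fold change 0.36, adjusted p = 0.480), and Mmp19 was 78.1 ± 17.8 and 92.6 ± 7.19 (0.27, adjusted p = 0.494). Timp2 was 23.2 ± 5.68 and 31.7 ± 12.4 (0.37, adjusted p = 0.598). Timp1 was 6.09, 3.80, 0 and 10.4 in ZLR and 10.5, 11.8, 8.36 and 14 in ZFR liver, overlapping through a ZLR value that was 1 read. Mmp9 reached at most 2.71 and Mmp13 at most 0.161 normalized counts in any of the 8 livers.

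Of the other MMP and TIMP genes, Mmp27 was named after its values were seen, since its mean was below 50. It was 0.192, 0.173, 0 and 0 normalized counts in ZLR and 60.9, 57.7, 83.6 and 93.3 in ZFR liver. It passed the minimum through the ZFR libraries alone, so no fold or test is given. In the 3-month ZFR livers, scaled on their own, it was 0 to 10.3. Of 9 matrix substrates 4 were called higher, among them Col3a1 (log2 fold change 1.56) and Col4a1 (1.16), and Fn1 was called lower (−0.38). Of 8 tested activators and inhibitors, Plg, which encodes the plasminogen whose active form can cut pro-MMPs, was called lower (−0.50, adjusted p = 0.00659). None of the 8 tested ADAM and ADAMTS genes was called, and 4 had an unadjusted p under 0.05 (limma), with Adam9 at 0.60 (adjusted p = 0.155). The stellate cell markers summed to 219 to 316 in ZFR and 190 to 226 in ZLR liver, and 0 of the 6 tested were called, 2 with an unadjusted p under 0.05 (limma). Of 6 hepatocyte markers 2 were called, both lower, Cps1 (−0.58) and Ttr (−0.43), and the sums of the 6 overlapped (169057 to 258472 in ZFR and 214891 to 285268 in ZLR liver). Of 5 tested endothelial markers 1 was called, Stab2, which was higher (1.16, adjusted p = 0.0330) and is named after its values were seen, and 2 had an unadjusted p under 0.05. Their sums were 306 to 439 in ZFR and 334 to 372 in ZLR liver. The cholangiocyte markers summed to 47.6 to 69.0 in ZFR and 26.0 to 73.9 in ZLR liver. Of 3 tested, 0 were called and 1 had an unadjusted p under 0.05 (limma). The neutrophil markers summed to 2.35 to 34.0 in ZFR and 0 to 3.72 in ZLR liver. The mesothelial markers summed to 2.03 to 23.5 and 6.39 to 31.3, and no marker of these last lists reached the minimum to be tested. The part of these markers in the Timp3 result was not tested.

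**Figure D5:**
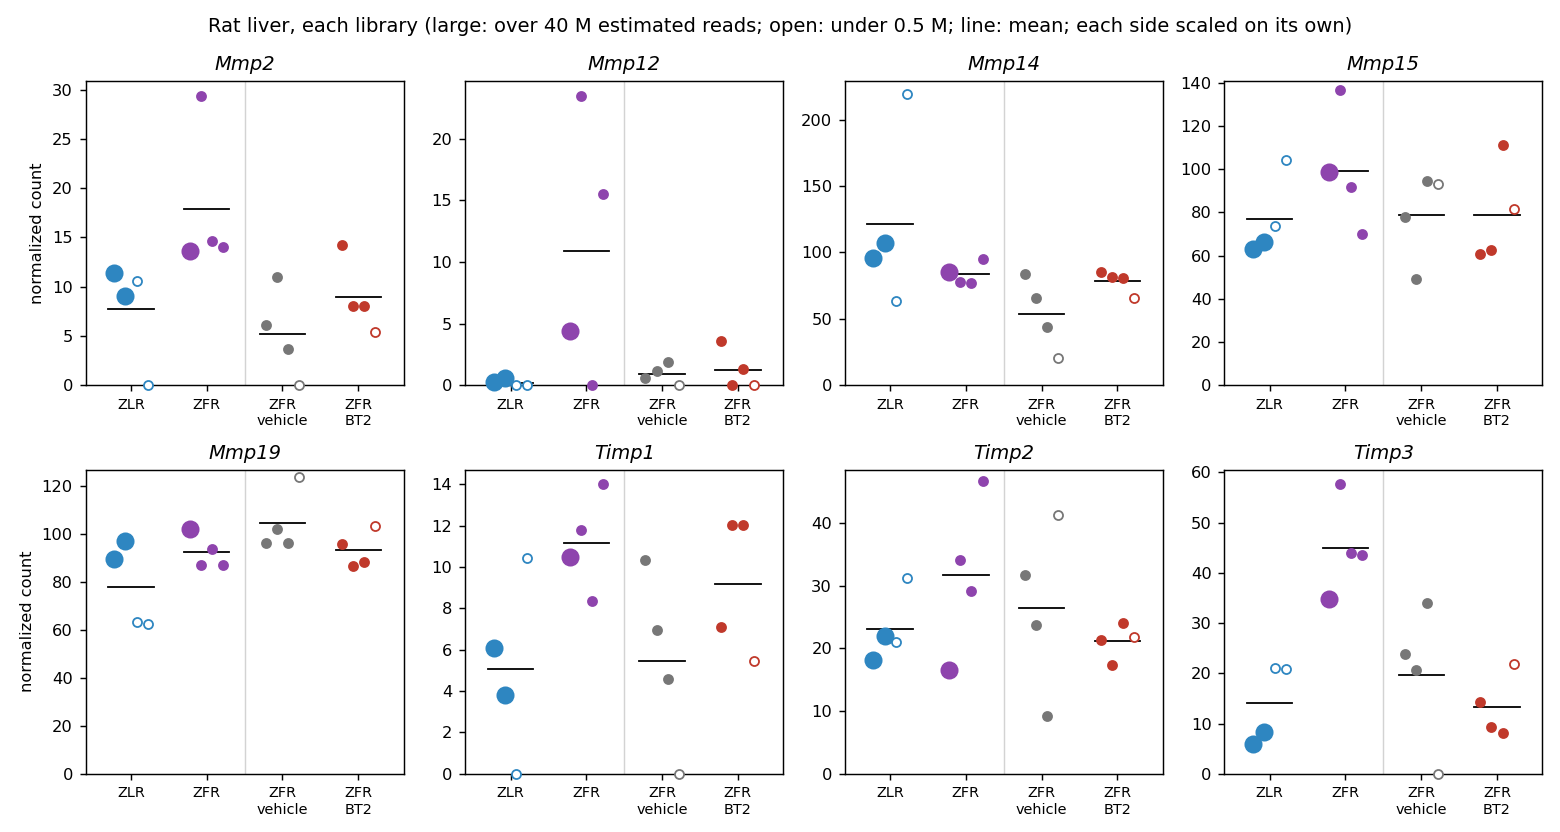
Normalized counts of 8 of the 10 genes in each rat liver, ZLR and ZFR left of the grey line and vehicle and BT2 right of it, each side scaled on its own, with a line at the mean, large points for libraries over 40 M estimated reads and open points for those under 0.5 M. Timp3 separates ZFR (34.9 to 57.7) from ZLR (5.82 to 21.1), and the vehicle and BT2 points overlap for every gene shown.

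BT2 was compared with vehicle in younger ZFRs to ask which hepatic genes respond to the compound. None of the 10 genes was called. Of the 5 tested genes (Mmp14, Mmp15, Mmp19, Timp2 and Timp3), 0 passed a limma adjusted p of 0.05 and 0 had an unadjusted p under 0.05, against 0% and 3.95% of 8405 genes. Mmp14 was 84.1, 65.8, 44.0 and 20.6 normalized counts with vehicle and 85.4, 81.4, 80.3 and 65.3 with BT2. These groups overlapped, and the vehicle value of 20.6 was 2 reads. A change of 0.70 on the log2 scale had a 95% confidence interval of −0.11 to 1.51 (adjusted p = 0.898).

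Timp3, the inhibitor called between ZFR and ZLR, was 23.8, 20.6, 33.9 and 0 with vehicle and 14.2, 9.34, 8.03 and 21.8 with BT2. The 0 belonged to the vehicle library of 0.193 M reads. Its log2 fold change was 0.20 with an interval of −2.01 to 2.41, and −1.24 (adjusted p = 0.996) without the 2 libraries under 0.5 M reads, so its direction rested on them. Mmp15 (0.01), Mmp19 (−0.15) and Timp2 (−0.14) had intervals of −0.58 to 0.59, −0.51 to 0.20 and −1.08 to 0.79. Mmp2 was at most 14.2 normalized counts and Timp1 at most 12.1 in these 8 livers. Mmp12 was at most 3.56, and Mmp13 was listed at 0 in all 8. Of the tested genes of the other lists, 0 were called (limma), and 1 had an unadjusted p under 0.05, the stellate cell marker Lrat (adjusted p = 0.898), named after its values were seen. Changes within the intervals given for Mmp14, Mmp15, Mmp19, Timp2 and Timp3 were not excluded at this depth.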

How the data were processed

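Liver poly(A) RNA was sequenced by the authors, aligned with STAR (mm10 or rn6), quantified with Salmon and normalized with DESeq2, separately for each of the 4 tables, and the deposited signal values are these normalized counts, mapped column by column to samples (0 columns unmatched). Library strand and annotation are not given in the sources used here. Depth was estimated as the sum of a library divided by its most frequent value above 0. Because 69.3% to 90.3% of low values were whole multiples of that value (tolerance 0.01), whole reads were not recovered and no count model was run. M stands for 1e6 reads.

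Tests used limma 3.58.1 (R 4.3.3) with a variance trend. Genes with a mean of at least 10 were fitted as the log2 of the normalized count plus 1, with Benjamini-Hochberg adjustment over all genes tested. Fold changes on this scale understate the change of low genes. A mouse call needed an adjusted p under 0.2 (and p under 0.05), more than a 1.2-fold change and a mean of over 50, and rat calls an adjusted p under 0.05. For the interaction, a gene had to reach the minimum in each mouse table. Exact permutation tests were two-sided and enumerated every relabelling. Entries without a gene name (at most 0.0461% of counts) and names occurring more than once (at most 2.17%) were left out. The result of 1 gene of the activator and inhibitor list is not reported here. Seed matches were searched in GENCODE M21 transcripts (GRCm38) with Python 3.11.15, and all 10 genes were found by symbol. No rat reference was used.

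The genes, the lists and the tests were chosen with earlier results of these data known. Named were all 10 genes, and of each other list the called genes with a mean above 50 (at most the 3 largest changes). Where none was called, the gene with the largest change at that mean was named, which is left out for some rat lists. The 3 genes most correlated with each member called in WT/Floxed mice were also named. Replicate numbers did not pair the samples (correlations of same-numbered deviations −0.28 to 0.24). Alternatives were a pseudocount of 10, no minimum, TMM scaling, sample quality weights, run prefix or background as covariate, the replicate block, repeated names kept, other adjusted limits and each library left out.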

Additional observations from a re-analysis of the deposited data

Results flagged for a closer look

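Among 58 groups of libraries of the tested genes, 6 held a library standing apart from the rest by Dixon's criterion, where chance gives about 1 in 20. In saline-treated WT/Floxed livers, replicate 2 was high for Mmp12 (23.7 normalized counts, the others 10.2 to 13.9) and low for Mmp15 (1333, the others 1819 to 1937), and replicate 5 was high for Mmp19 (6492, the others 4281 to 4884). In LNA29-treated WT/Floxed livers, replicate 4 was low for Mmp13 (2.13, the others 10.4 to 15.7), on 2 reads. In LNA29-treated L-Sirt1 KO livers, replicate 2 was low for Mmp19 (3823, the others 4960 to 5161). ZFR replicate 2 was high for Mmp2 (29.4, the others 13.6 to 14.6), on 25 reads. No difference in response between genotypes passed its test among these genes.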

How the results depend on the processing

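The log2 fold changes of Mmp2 and Mmp12 in WT/Floxed mice kept their sign under every alternative run. Of 333 values of single genes under alternatives other than leaving out a library, 297 kept their direction and call, 14 lost a call, 2 gained it and 20 reversed. Of 466 without a library, 398 kept both, 17 lost a call and 51 reversed. The cause of these changes was not tested, beyond what an alternative's own construction shows. Rat depth limits genes below about 10 normalized counts, and higher ones in the shallowest libraries. In ZLR replicates 3 and 4, Timp3 at 21.1 and 20.9 rested on 2 reads each, and Mmp19 at 63.2 and 62.7 on 6 each.

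Called members in WT/Floxed mice numbered 2, and 0 with the replicate block (Mmp2 0.94, adjusted p = 0.345) and 1 at an adjusted p under 0.05. In L-Sirt1 KO mice the 1 called member became 0 with no minimum, with the run prefix (the number that opens the library names; Mmp2 1.0, adjusted p = 0.324), with the replicate block (Mmp2 adjusted p = 0.299), with repeated names kept and at an adjusted p under 0.05. Between ZFR and ZLR the 1 became 0 with no minimum (Timp3 adjusted p = 0.122) or the replicate block (0.0848), and 2 with quality weights (Mmp15 0.55, adjusted p = 0.0318). For the interaction 0 became 1 with quality weights (Mmp19 0.52, adjusted p = 0.129). Without a library the counts were 1 to 2, 0 to 1, 0 to 1, 0 to 0 for BT2 and 0 to 0 for the interaction. The replicate numbers do not pair the samples, and the best match had its own number in 0 of 5 WT/Floxed, 1 of 4 L-Sirt1 KO, 1 of 4 ZFR and ZLR and 2 of 4 BT2 and vehicle pairs. Seed matches fell from 2 genes to 0 with the 8-base site. Leaving out rat libraries under 0.1 of the table's median depth removed none.

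All called genes in WT/Floxed mice numbered 688, and 396 with no minimum, 1308 with quality weights, 56 with the block and 206 at an adjusted p under 0.05. In L-Sirt1 KO mice they numbered 297, and 160, 804, 145 and 37 likewise, and 103 with the run prefix. Between ZFR and ZLR they numbered 367, and 241, 1169 and 221, and 945 at an adjusted p under 0.2. BT2 gave 0, or 1 with a pseudocount of 10, quality weights, an adjusted p under 0.2 or without the libraries under 0.5 M reads, an alternative chosen after seeing the data. The interaction gave 7, and 1220 with quality weights, 19 with the run prefix and 0 with the block. Without a library these counts were 381 to 1006, 77 to 426, 225 to 379, 0 to 2 and 0 to 233.

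Reversed log2 fold changes were as follows. In WT/Floxed mice Mmp15 was −0.015 with quality weights and −0.042 with the block, Mmp9 0.032 with the block and 0.22 within floxed mice, and Mmp13 −0.27 within WT mice. Mmp14 in L-Sirt1 KO mice was −0.0096 with the run prefix. In rats Mmp19 between ZFR and ZLR was −0.014 without the shallow libraries. Under BT2 Timp3 was −0.19 with a pseudocount of 10, −0.87 with quality weights and −1.24 without the shallow libraries, Mmp15 −0.013 with TMM and Timp2 0.11 without the shallow libraries. In the interaction Mmp13 was −0.019 with a pseudocount of 10, −0.11 with quality weights and −0.098 with the run prefix, Mmp2 0.065 with quality weights and 0.046 with the block, Mmp9 −0.029 with the block, and Mmp14 0.0051 with the run prefix and 0.023 with the block.

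Over all fits without a library, log2 fold changes that took the other sign in at least 1 of these fits ranged from −0.37 to 0.051 for Mmp9, −0.090 to 0.046 for Mmp15 and −0.0021 to 0.19 for Timp3 in WT/Floxed mice. In L-Sirt1 KO mice they ranged from −0.29 to 0.28 for Mmp9, −0.19 to 0.42 for Mmp13 and −0.12 to 0.24 for Mmp14. Under BT2 they ranged from −0.20 to 0.12 for Mmp15, −0.56 to 0.12 for Timp2 and −0.98 to 0.72 for Timp3. In the interaction they ranged from −0.29 to 0.13 for Mmp2, −0.16 to 0.41 for Mmp9, −0.39 to 0.0047 for Mmp12, −0.34 to 0.27 for Mmp13, −0.21 to 0.15 for Mmp14 and −0.058 to 0.20 for Timp2.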
